A study of Mus musculus with 23 samples.

Results

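The comparison described here is the second day of treatment with a Hedgehog pathway drug in mouse medulloblastoma, 48 h against 24 h. It holds 6 of the 23 arrays of the series, chosen by their description labels: 3 arrays of tumours given LDE225AZ at 40 mg/kg for 48 h and 3 given the same dose for 24 h. No untreated tumour enters the fit reported here. All tumours came from cells of a Ptch+/-HIC+/- mouse medulloblastoma, dissociated and placed under the skin of the flank of nude (nu/nu) mice, so both groups share the genotype, the host and the drug and, by the labels, differ in time. The labels give neither the dosing interval nor the animals' age, and what AZ adds to the compound's name is not stated. Vehicle, 4 h and 8 h drug arrays are quoted below for level only. Vehicle values are those of the 3 vehicle arrays with no time label, and leave out the 2 vehicle arrays labelled 4 h unless stated.

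Medulloblastoma of this kind arises from granule neuron progenitors, the cells that build the granule layer of the cerebellum. The progenitors divide while Sonic hedgehog holds the receptor Patched 1 inactive, which frees Smoothened to activate the GLI transcription factors. Loss of Ptch1 leaves Smoothened free without a ligand. LDE225 (sonidegib) is a Smoothened antagonist, and progenitors that lose the signal leave the cell cycle and become neurons. The allograft grows outside the brain in a host with few T cells. The source of its blood vessels, stroma and phagocytes was not tested. Host and tumour RNA are both murine and are measured together.

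The 6 arrays were of like overall level, with a median MAS5 signal of 45.9 to 46.7 at 48 h and 41.0 to 46.0 at 24 h, all scaled by the authors to a trimmed mean of 150. Log2 signals correlated at r = 0.9589 to 0.9698 within the 48 h group, 0.9666 to 0.9693 within the 24 h group and 0.8963 to 0.9365 between groups, across probe sets. The groups differed in RNA integrity. The actin control probe sets at the 3' and 5' ends of the transcript gave a log2 3'/5' ratio of 0.95, 0.84 and 0.96 at 48 h, against 1.83, 1.72 and 1.41 at 24 h, a difference of -0.735 (exact permutation test, two-sided p = 0.1, the smallest that 3 against 3 allows). The Gapdh ratio averaged -0.10 ± 0.10 at 48 h and 0.64 ± 0.19 at 24 h (SD, n = 3 each). The part of this difference in the results below was not tested. One 24 h array, replicate 1, carries a source label that calls its tumour resistant while its status label says sensitive, and its identifier comes from another number run than the other 5. It was kept in the 24 h group by its description, and its removal moved 11 of 92 list counts by over 1.5 times, which are given both ways or as a range, and 33 others by less. Atoh1, the defining marker of granule neuron progenitors, and Barhl1, Zic1, Zic2, Pax6 and Neurod1, markers of the granule neuron lineage, were above the 40th percentile on all 6 arrays, which was 26.7 to 28.6 at 48 h and 23.9 to 28.6 at 24 h.

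Many genes differed between the second and the first day of drug, and the large changes ran mostly upward. Genes of macrophages, lysosomes, lipid handling and matrix rose in most members tested and those of young neurons in 17 of 33, while most Hedgehog targets and ribosome-making genes, 9 of 22 progenitor genes and 15 of 36 G1 regulators fell. Of 29597 probe sets above the low-signal filter, 3999 were higher at 48 h (13.5%) and 4160 lower (14.1%), 8159 in all (27.6%), at a limma adjusted p under 0.05. With 1 probe set per gene, 2142 of 13166 genes were higher (16.3%) and 2154 lower (16.4%), or 32.6% in either direction, and the median change was -0.03 on the log2 scale. A change of at least 1 log2 unit was seen in 942 of the genes called higher and 232 of those called lower, and a change of at least 2 in 188 and 21. Of the 4296 genes called, 4226 had 48 h and 24 h arrays that did not overlap. Over all genes, every 48 h array lay above every 24 h array in 22.2% and below in 25.3%. Leaving out each array in turn, 1452 of the higher and 1246 of the lower genes were called every time. Every list below is described by its counts, to be read against the 16.3% of all genes higher and 16.4% lower. Those shares are printed again beside some lists only. No test of a list itself was made, and some lists share genes.

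**Figure D1:**
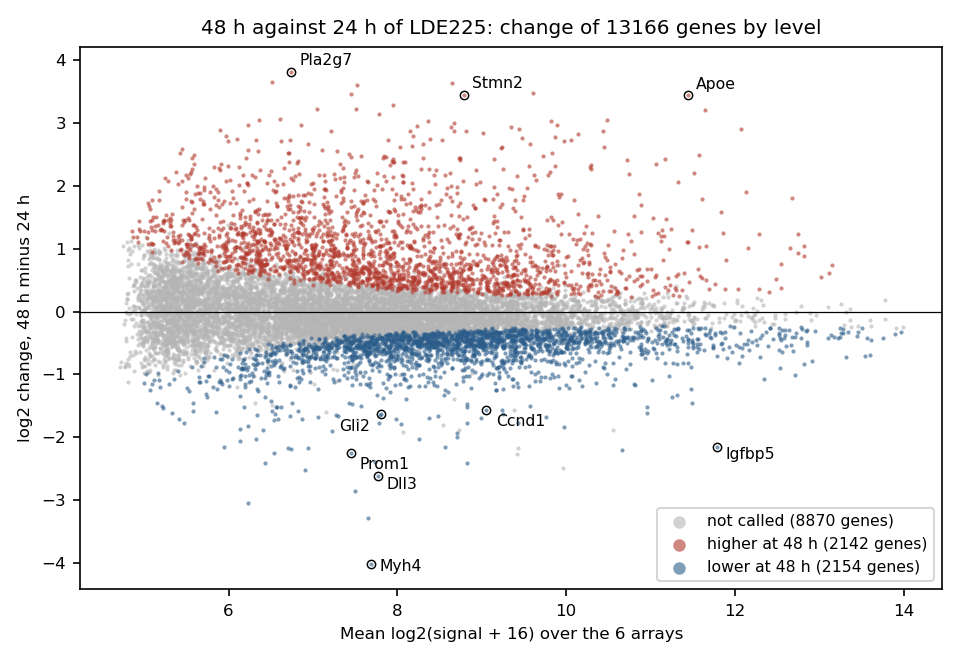
The log2 change of each of 13166 genes, 48 h minus 24 h, is plotted against its mean log2(signal + 16) over the 6 arrays, with genes higher at 48 h in red, lower in blue and not called in grey. Changes of 2 or more log2 units lie mostly above the line, 188 genes against 21 below it.

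Many of the 20 largest rises are known as genes of phagocytes, among them Fcgr3, Trem2, Gpnmb, Lyz2, C1qa, Aif1 and Cybb, and the set also held Stmn2, a microtubule regulator of growth cones. Values in the sentences that follow are MAS5 signals in the order of replicates 1, 3 and 4 at 48 h and 1, 2 and 3 at 24 h, and changes are in log2(signal + 16), 48 h minus 24 h, with the SE of the limma fit. Stmn2 had signals of 1441, 1439.6 and 1468 at 48 h, against 111, 114 and 129 at 24 h (log2 change 3.46 ± 0.10, limma adjusted p = 1.58e-08). Its 3 arrays at 48 h lay within a narrow band far above all 24 h arrays. Apoe, the lipid carrier protein that macrophages secrete, had 9197, 7866 and 10591 at 48 h, against 1039.7, 736 and 735 at 24 h (log2 change 3.44 ± 0.14, limma adjusted p = 1.54e-07). Fcgr3, a receptor for antibody-coated particles, had 1562, 1126 and 1542 at 48 h, against 111, 73.6 and 111 at 24 h (log2 change 3.64 ± 0.16). In neither gene did the groups overlap. Slc40a1, which encodes ferroportin, the iron exporter, had 3201, 2198 and 2456 at 48 h, against 226, 174 and 259 at 24 h (log2 change 3.48 ± 0.16). Pla2g7, an enzyme that breaks down platelet-activating factor, had the highest fitted change, with 397, 316 and 456 at 48 h, against 20.3, 16.4 and 3.5 at 24 h (log2 change 3.82 ± 0.24). Pla2g7, Gpr34 and Cyp27a1 were at or under the 40th percentile of the array on all 3 arrays at 24 h, so they passed the filter on low signals through the 48 h arrays, and their changes and rank rest on a level near the floor and depend on the constant of 16.

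The 20 largest falls were a mixed set, and 3 of them (Myh4, Mybpc2 and Atp2a1) encode skeletal muscle proteins, described with the muscle list. Tmem132e, a membrane protein gene, had 53.4, 54.5 and 38.9 at 48 h, against 591, 658 and 589.6 at 24 h (log2 change -3.28 ± 0.14, limma adjusted p = 1.79e-07). Dll3, a Notch ligand family member that acts within the cell, had 65.3, 112 and 50.4 at 48 h, against 530.2, 471 and 586 at 24 h (log2 change -2.62 ± 0.21). The groups were far apart in both. Prom1, which encodes the stem cell surface protein CD133, had 55.1, 64.8 and 73.9 at 48 h, against 358, 393 and 342 at 24 h (log2 change -2.24 ± 0.14), against a vehicle mean of 1186. Mycl, a MYC family transcription factor, had 166, 276 and 128 at 48 h, against 965, 1150.0 and 986 at 24 h (log2 change -2.41 ± 0.20). For Prph, an intermediate filament gene (log2 change -3.05 ± 0.30), all 3 arrays at 48 h were at or under the 40th percentile. Wnt4 and Rspo1, a Wnt ligand and an amplifier of Wnt signalling, changed by -2.17 and -2.17.

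**Figure D2:**
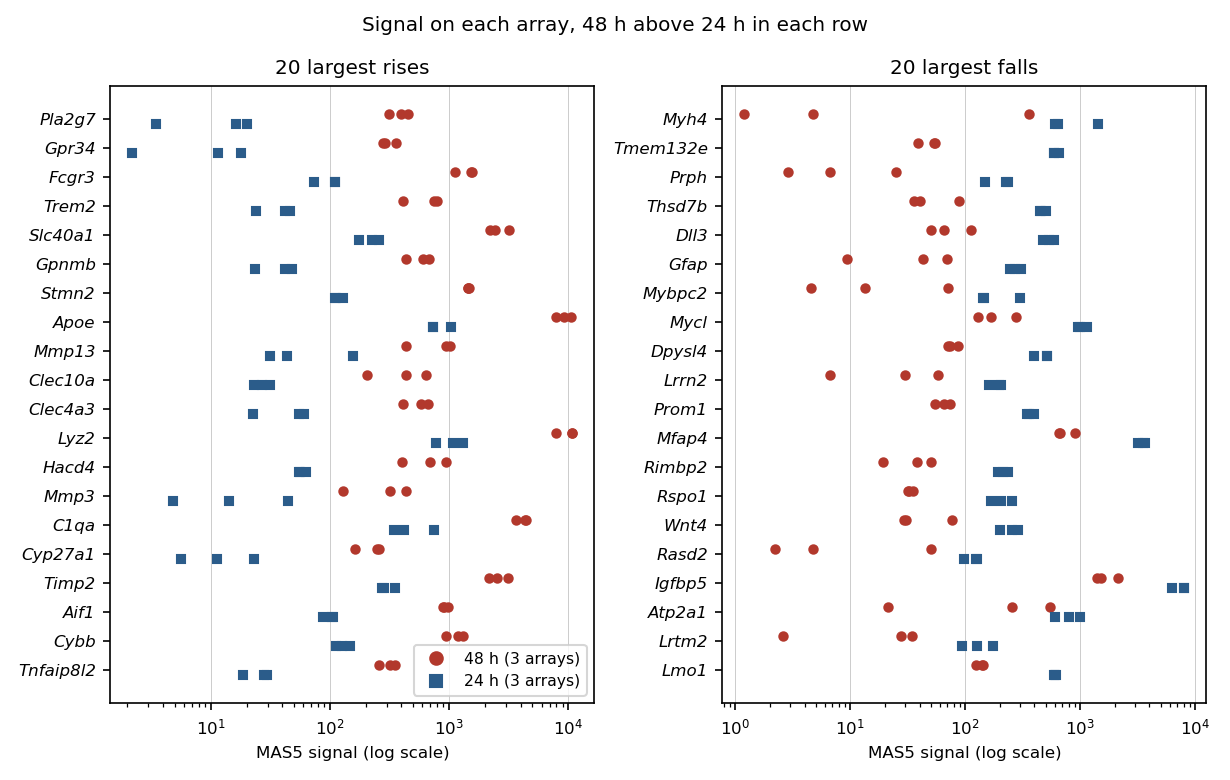
MAS5 signal (log scale) on each array for the 20 largest rises and 20 largest falls, with the 48 h arrays as red circles and the 24 h arrays as blue squares just below them. For Stmn2 the 3 circles coincide near 1441 to 1468, and for Myh4 they are spread between 1.2 and 361.

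Hedgehog targets fell further on the second day. Of 22 targets on the list 18 were tested, of which 11 fell (against 16.4% of all genes) and 1 rose (against 16.3%), with a median of -0.54. Gli1, the usual readout of the pathway, had signals too low to pass the filter, as had Foxc2 and Nkx2-2. Gli2, the main activator of the family in progenitors, had 125, 100.0 and 108 at 48 h, against 387, 369 and 378 at 24 h (log2 change -1.64 ± 0.12, limma adjusted p = 4.85e-06). Ccnd1, the cyclin that GLI and MYCN drive in progenitors, had 347, 280.0 and 255 at 48 h, against 848, 940.2 and 888 at 24 h (log2 change -1.56 ± 0.12, limma adjusted p = 5.16e-06). The 48 h values of both lay under all 24 h values and far under the vehicle means of 1298 and 3741. Boc, a co-receptor for the ligand, had 101, 163 and 120.3 at 48 h, against 474, 450.3 and 507 at 24 h (log2 change -1.79 ± 0.15), and Mycn had 386, 469.6 and 343 at 48 h, against 866, 908 and 704 at 24 h (log2 change -1.02 ± 0.13). In bulk tumour RNA, fewer cells of a type and less RNA per cell cannot be told apart, which holds for every fall given here.

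Ptch1 itself was far under its vehicle level at both times and fell by less than Gli2. It had 253, 302 and 217 at 48 h, against 398, 353 and 367 at 24 h (log2 change -0.52 ± 0.13, limma adjusted p = 0.0114), groups that did not overlap, and a vehicle mean of 2713. Sfrp1, a secreted Wnt antagonist, and Igf2, a growth factor known to act in these tumours, fell (log2 change -0.56 and -0.79). Hhip, which binds and removes the ligand, had 1.8, 4.7 and 47.7 at 48 h, against 5.0, 38.3 and 30.2 at 24 h (log2 change -0.39 ± 0.53, limma adjusted p = 0.635), a level too low and uneven to read. The 1 target that rose was Ccnd2, a cyclin of the same family as Ccnd1, with 1034, 1002 and 982 at 48 h, against 625, 779 and 548 at 24 h (log2 change 0.63 ± 0.12). Its vehicle mean was 125.

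Counts for the machinery upstream of GLI lay nearer to those of all genes. Of 23 transducers tested, 5 rose (21.7%, against 16.3% of all genes) and 6 fell (26.1%, against 16.4%), with a median of -0.27, and the counts depended on single arrays: 3 rose without 48 h replicate 1, and 3 fell without 24 h replicate 2. Smo, which encodes the drug's target, had 323, 305 and 292 at 48 h, against 506, 579 and 495 at 24 h (log2 change -0.75 ± 0.10, limma adjusted p = 0.000335). Evc and Evc2, partners of Smoothened at the base of the cilium, fell (log2 change -0.70 and -1.13). Spop, an adaptor for GLI degradation, and the protein kinase A subunit Prkacb rose by 0.72 and 0.62, and the beta-arrestin Arrb1 rose by 1.01. Sufu, the inhibitor that holds GLI proteins in the cytoplasm, had 275, 270.1 and 259 at 48 h, against 264, 285 and 246 at 24 h (log2 change 0.02 ± 0.11, limma adjusted p = 0.93), with groups that overlapped.

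**Figure D3:**
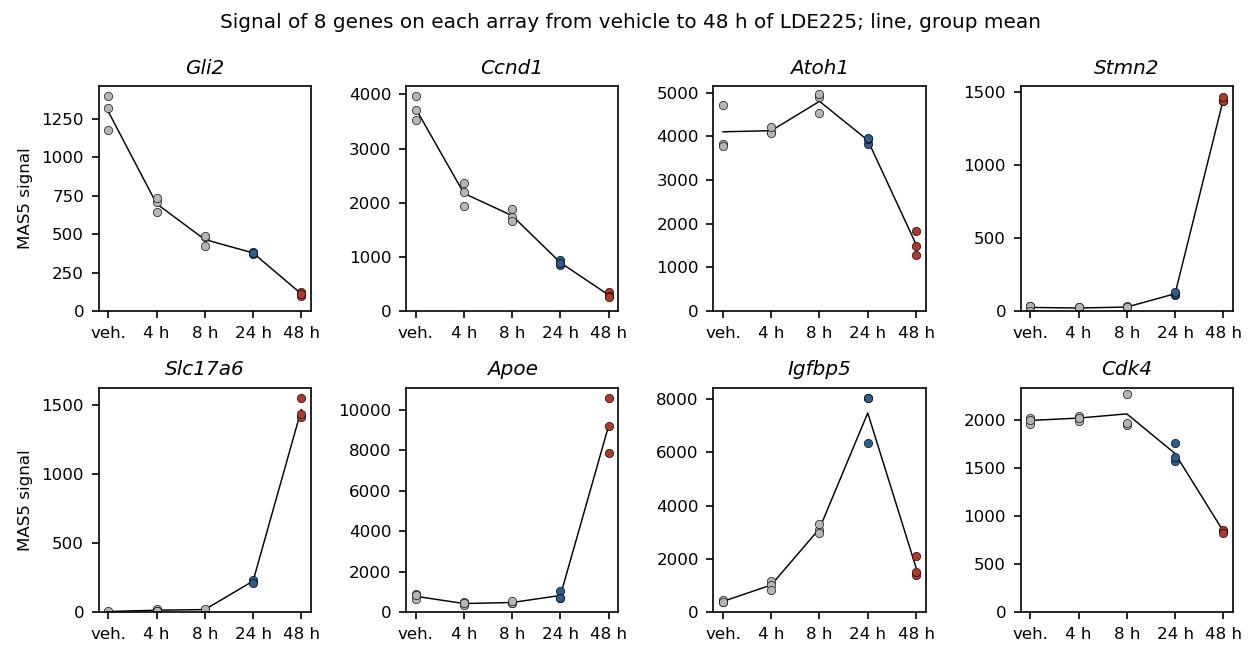
MAS5 signal of 8 genes on each vehicle array with no time label and each array of 4, 8, 24 and 48 h of drug, with lines through group means. Only the last interval was tested. Gli2 and Ccnd1 decline throughout, Atoh1 and Cdk4 have their lowest values at 48 h, Stmn2, Slc17a6 and Apoe climb between 24 and 48 h, and Igfbp5 is highest at 24 h.

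Several genes of the progenitor state fell, while others did not pass the test. Of 22 granule neuron progenitor genes tested, 9 fell and 2 rose (1 without 24 h replicate 1 or 2), with a median of -0.33. Their summed signal was 23590 to 29188 at 48 h and 31723 to 36216 at 24 h, against 18540 to 20473 in vehicle tumours. Atoh1, the transcription factor that defines these progenitors, had 1271, 1834 and 1478 at 48 h, against 3823, 3939 and 3962 at 24 h (log2 change -1.36 ± 0.12, limma adjusted p = 1.08e-05). All 24 h values lay close to the vehicle mean of 4101, and all 48 h values were under them. Hes6, a HES family factor of cells entering differentiation, had 194, 184 and 174 at 48 h, against 562, 577 and 727 at 24 h (log2 change -1.66 ± 0.12). Sox2, the stem cell factor, was low at 48 h, with 16.6, 30.1 and 26.1 at 48 h, against 100.5, 148 and 132 at 24 h (log2 change -1.83 ± 0.22). Cxcr4, the chemokine receptor that keeps progenitors in the outer layer of the cerebellum, fell by 1.18. The homeobox genes Barhl1 and Lhx1 fell (log2 change -1.09 and -1.10), yet at 48 h (means 769 and 550.3) stayed over their vehicle means of 243 and 295. Zic1, a granule lineage factor kept by mature granule neurons, had 7156, 8747 and 7585 at 48 h, against 7214, 9201 and 8048 at 24 h (log2 change -0.06 ± 0.10, limma adjusted p = 0.734), and the groups overlapped.

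Of 28 Notch and HES genes tested 4 fell and 4 rose, with a median of 0.01. Each share was 14.3%, under those of all genes. Beside Dll3 and Hes6, the HES-related repressor Hey1 and the Notch-modifying enzyme Mfng fell (log2 change -0.79 and -0.79). Notch2 and Id3 rose by 0.88 and 0.86. Without 48 h replicate 3 there were 7 genes called higher in place of 4.

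Genes of young neurons rose. Of 33 early neuronal differentiation genes, all tested, 17 rose and 2 fell (0 without 48 h replicate 1 or 4 or without 24 h replicate 2 or 3), with a median of 0.40. L1cam, an adhesion molecule of growing axons, had 1489, 1213 and 1269 at 48 h, against 255, 266 and 259.9 at 24 h (log2 change 2.27 ± 0.10, limma adjusted p = 1.79e-07). Gap43, a growth cone protein, had 1968, 1942 and 1838 at 48 h, against 571, 632 and 737 at 24 h (log2 change 1.55 ± 0.10), and Stmn4, a relative of Stmn2, had 648, 667 and 578 at 48 h, against 164, 158 and 145 at 24 h (log2 change 1.91 ± 0.11). None of these groups overlapped. Neurod1, the transcription factor of differentiating granule neurons, had 6215, 6616 and 6475 at 48 h, against 2688, 3448 and 3506 at 24 h (log2 change 1.01 ± 0.10, limma adjusted p = 3.55e-05), against a vehicle mean of 305. Dcx, a microtubule protein of migrating neurons, was already far over its vehicle mean of 36.1 at 24 h and had 1625, 1597 and 1606 at 48 h, against 910.5, 976 and 884 at 24 h (log2 change 0.79 ± 0.08). In the 2 vehicle arrays labelled 4 h the means were higher, 626 for Neurod1 and 145 for Dcx. The pan-neuronal genes Rbfox3 (0.03) and Elavl4 (-0.02) did not pass the test.

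Of 44 synaptic and excitable membrane genes tested 13 rose and 5 fell, with a median of 0.25, and 14 more were too low to test. Of the 13, 2 passed the filter through the 48 h arrays alone, and of the 41 measured in both groups 11 rose. Slc17a6, the vesicular glutamate transporter of young excitatory neurons, had 1549, 1416 and 1434 at 48 h, against 228, 237 and 215 at 24 h (log2 change 2.61 ± 0.09, limma adjusted p = 5.94e-08). Its vehicle mean was 6.5. Slc17a7, the transporter of mature granule neurons, had 31.0, 45.1 and 46.4 at 48 h, against 39.4, 28.3 and 35.6 at 24 h (log2 change 0.17 ± 0.25, limma adjusted p = 0.662), low in both groups. The potassium channel Kcna1 and the vesicle GTPase Rab3c rose by 1.84 and 1.11, though only 1 of the 4 tested probe sets of Rab3c was called. The glutamate receptor subunits Grin2c, Gria3 and Gria2 fell (log2 change -1.70, -1.46 and -0.81). Snap25, a synaptic fusion protein, had 2308, 2625 and 2169.9 at 48 h, against 2472, 2503 and 2707 at 24 h (log2 change -0.12 ± 0.09, limma adjusted p = 0.374), and a vehicle mean of 307. Of 11 secretory granule genes tested 3 rose and 0 fell. Chgb, a granule core protein, had 7149.8, 7391 and 7166 at 48 h, against 1054, 1364 and 1430.4 at 24 h (log2 change 2.49 ± 0.11), and Cadps and Adcyap1 rose by 1.59 and 1.02.

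Some regulators of the G1 phase fell, while genes of replication and mitosis mostly did not pass the test. Of 36 G1 to S regulators tested 15 fell and 3 rose, with a median of -0.20, and 3 of the 36 are also on the Hedgehog target list. Cdk4, the kinase partner of the D cyclins, had 848, 854 and 823 at 48 h, against 1567, 1761 and 1614 at 24 h (log2 change -0.95 ± 0.08, limma adjusted p = 1.30e-05). The groups did not overlap, and the vehicle mean was 1991. Myc and Tob1 fell (log2 change -0.75 and -0.76). Cdkn1a, which encodes the kinase inhibitor p21, rose by 0.77, with 504, 519.6 and 599 at 48 h, against 354, 286 and 293 at 24 h. Cdkn1b, which encodes p27, the inhibitor best known in granule neurons, had 1552, 1419 and 1549.5 at 48 h, against 1439.7, 1129.8 and 1424 at 24 h (log2 change 0.18 ± 0.10, limma adjusted p = 0.216), and the groups overlapped.

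All 49 replication genes tested had group means under their vehicle means at both times, and few passed the test between them. Of the 49, 6 rose (12.2%) and 4 fell (8.16%), shares under those of all genes, with a median of 0.00. Only 2 rose without 48 h replicate 1 or 4, and 3 without 24 h replicate 2 or 3. Mcm7 and Mcm6, subunits of the replicative helicase, and Pold2, a polymerase subunit, fell (log2 change -0.68, -0.64 and -0.62). Pcna, the polymerase clamp, and Gmnn, the licensing inhibitor geminin, rose by 0.61 and 0.83. Pcna had 1400.1, 1158 and 1779 at 48 h, against 992, 879 and 912 at 24 h, with a vehicle mean of 5992.

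Few mitotic genes passed the test. Of 55 tested 7 rose and 1 fell, with a median of 0.36. Their summed signal was 10343 to 13733 at 48 h and 10779 to 11604 at 24 h, against 73552 to 74671 in vehicle tumours. The count was set by single arrays: 23 rose without 48 h replicate 3, 11 without 24 h replicate 1, 3 without 48 h replicate 4 and 1 without 48 h replicate 1 or 24 h replicate 2. Mki67, the proliferation marker, had 664, 413 and 640.5 at 48 h, against 372, 304 and 362 at 24 h (log2 change 0.68 ± 0.16, limma adjusted p = 0.00984) and lost its call without 48 h replicate 1 or 24 h replicate 2. Cenpa, the centromere histone, had 278, 211 and 239 at 48 h, against 127, 94.7 and 107 at 24 h (log2 change 1.04 ± 0.15, limma adjusted p = 0.000414) and was called in every fit that left out an array. The other of its 2 tested probe sets was not called. Top2a, a topoisomerase of dividing cells, had 381, 254 and 368 at 48 h, against 304, 199.9 and 252 at 24 h (log2 change 0.39 ± 0.18, limma adjusted p = 0.127), with groups that overlapped. Cks1b, a subunit that cyclin-dependent kinases bind, fell by 0.46. Among the 48 h arrays, replicate 3 was the lowest in Cenpa, Mki67 and Top2a, and it also had the highest muscle and fat marker sums.

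Genes that build ribosomes fell. Of 43 ribosome biogenesis genes, all tested, 26 fell and 0 rose, with a median of -0.56. Polr1c, a subunit shared by RNA polymerases I and III, had 538, 622 and 536 at 48 h, against 1175, 1245 and 1101 at 24 h (log2 change -1.03 ± 0.10, limma adjusted p = 1.89e-05). Npm1, the nucleolar chaperone nucleophosmin, had 3782, 3977 and 3993 at 48 h, against 6588, 6484 and 6279 at 24 h (log2 change -0.72 ± 0.07, limma adjusted p = 3.42e-05). In both the groups did not overlap, and the 24 h values were themselves under the vehicle means of 1442 and 8302. Nop56 and Dkc1, parts of the small nucleolar particles that modify ribosomal RNA, fell (log2 change -0.98 and -0.93), as did Nhp2 (-0.65) and Rrs1 (-0.69). Ncl, which encodes nucleolin, had 2711, 2685 and 2798 at 48 h, against 2353, 2661 and 2895 at 24 h (log2 change 0.06 ± 0.09, limma adjusted p = 0.686), and the groups overlapped.

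Cytoplasmic ribosomal protein genes fell too, with a smaller median. Of 30 tested 22 fell and 0 rose, with a median of -0.33. The count was 16 without 24 h replicate 1, 13 without 48 h replicate 1 or 24 h replicate 2, and 8 in a fit without the trend of variance with level. Rps10 had 10162, 10553 and 10600.0 at 48 h, against 14292, 14116 and 13731 at 24 h (log2 change -0.43 ± 0.07, limma adjusted p = 0.00106), near a vehicle mean of 13534 at 24 h. Rps6 and Rpl14, at lower signals, fell (log2 change -1.05 and -1.15). The 3' to 5' ratios given above also differed between these arrays, and the part of RNA integrity in these small falls was not tested.

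Some enzymes of growth metabolism fell. Of 25 serine, folate and one-carbon enzymes tested 11 fell and 2 rose (1 or 2 when each array was left out), with a median of -0.32. Ctps, which makes CTP, had 224, 239 and 226 at 48 h, against 591, 558 and 549 at 24 h (log2 change -1.24 ± 0.10, limma adjusted p = 7.20e-06). Phgdh, the first enzyme of serine synthesis, had 128, 190.4 and 104 at 48 h, against 321, 392 and 309.6 at 24 h (log2 change -1.21 ± 0.18). Psat1 and Shmt2, later steps of the same route, fell (log2 change -0.82 and -0.67), as did Cad (-0.70), which begins pyrimidine synthesis. Of 30 sterol and fatty acid synthesis genes tested 9 fell and 3 rose, with a median of -0.30, and 15 fell without 48 h replicate 3, the array with the highest signals of the fat-cell genes. Insig1, a feedback regulator of sterol synthesis, had 134, 125 and 105 at 48 h, against 334, 303 and 348 at 24 h (log2 change -1.33 ± 0.13), and Idi1 and Sqle, enzymes of the pathway, fell (log2 change -1.11 and -0.85). Fasn, the fatty acid synthase, had 497, 1787 and 651 at 48 h, against 1213, 1185 and 1147 at 24 h (log2 change -0.49 ± 0.34, limma adjusted p = 0.31), with replicate 3 alone high at 48 h.

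Chromatin regulators and cilium genes also fell in part. Of 37 Polycomb and chromatin genes tested 15 fell and 2 rose, with a median of -0.26. Smarcc1, a core subunit of the BAF remodelling complex, had 511, 588 and 475 at 48 h, against 1172, 1269.9 and 1019 at 24 h (log2 change -1.11 ± 0.11, limma adjusted p = 3.16e-05), and the catalytic subunit Smarca4, the deacetylase Hdac2 and the 5-methylcytosine oxidase Tet1 fell (log2 change -0.55, -0.52 and -0.71). Actl6b, the neuronal subunit of the same complex, had 134, 122 and 145 at 48 h, against 75.3, 76.9 and 84.5 at 24 h (log2 change 0.65 ± 0.15), and Actl6a, its counterpart in progenitors, had 421, 447 and 397 at 48 h, against 576, 558 and 653 at 24 h (log2 change -0.48 ± 0.10); both passed the test, and both were looked up for this contrast after their values were seen. Of 35 primary cilium genes tested 13 fell and 1 rose, with a median of -0.38, and 8 fell without 48 h replicate 4 and 9 without 24 h replicate 1. Ift122 and Ift140, of the retrograde transport complex, fell (log2 change -0.89 and -0.58), as did Rfx3 (-0.76), a transcription factor of cilium genes. Ift20 rose by 0.64.

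Macrophage genes had the highest median change of the 46 lists. Of 38 macrophage and microglia markers tested 35 rose and 0 fell, against 16.3% of all genes, with a median of 2.15. When each array was left out or the variance trend was dropped, 33 to 36 rose. Of the 35, 4 were at or under the 40th percentile on all 24 h arrays and passed the filter through the 48 h arrays alone; of the other 33 tested 31 rose. The summed signal of the list was 54053 to 75601 at 48 h, 10787 to 15825 at 24 h and 4267 to 6942 in vehicle tumours. Aif1, a cytoskeletal protein of macrophages, had 914, 891 and 976 at 48 h, against 107, 87.9 and 104 at 24 h (log2 change 3.03 ± 0.11, limma adjusted p = 6.98e-08). Csf1r, the receptor that macrophages need to survive, had 5817, 4465 and 5803 at 48 h, against 1314, 750.2 and 953 at 24 h (log2 change 2.42 ± 0.17), and Adgre1, which encodes F4/80, had 719.6, 609 and 830.2 at 48 h, against 151, 94.3 and 171 at 24 h (log2 change 2.27 ± 0.19). Every 48 h array lay above every 24 h array in these 3 genes. Trem2, a lipid-sensing receptor, had 796, 409 and 743 at 48 h, against 46.6, 42.3 and 23.8 at 24 h (log2 change 3.60 ± 0.24), Lyz2, lysozyme, had 10720.2, 7973 and 10885 at 48 h, against 1307, 786 and 1087 at 24 h (log2 change 3.21 ± 0.17), and Gpnmb, a glycoprotein of phagocytes rich in lysosomes, rose by 3.47. Only 1 of the 2 tested probe sets of Trem2 was called, and Trem2 was at or under the 40th percentile on 1 of the 24 h arrays. Replicate 3 was the lowest of the 48 h arrays in Trem2, Lyz2 and the list sum. The host is nude but keeps its macrophages; whether more macrophages or more RNA per macrophage lay behind these values cannot be told apart.

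**Figure D4:**
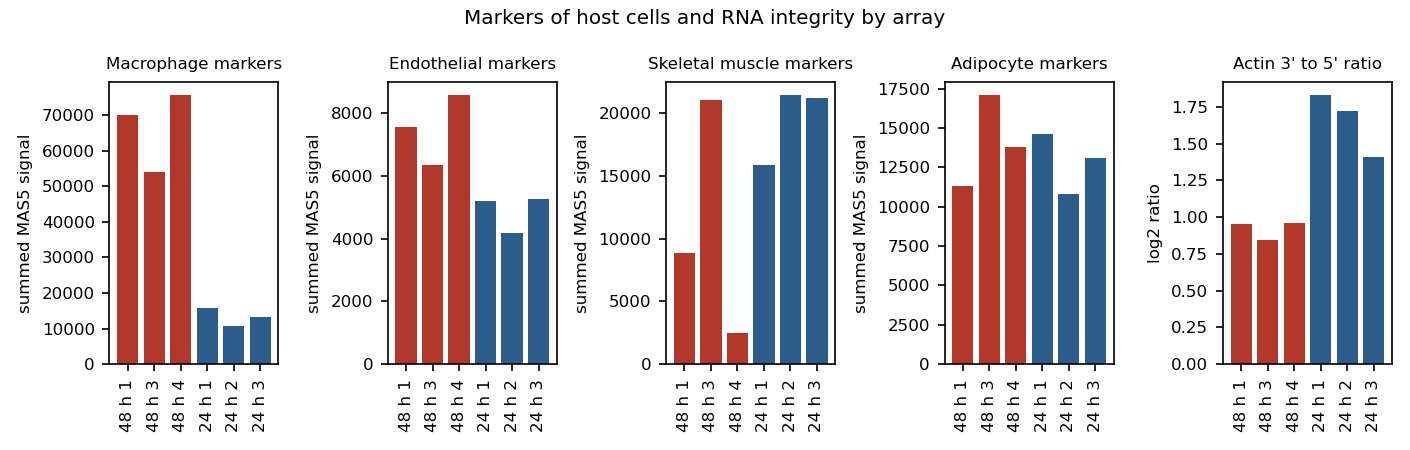
Summed MAS5 signal of 4 marker lists, and the log2 3'/5' ratio of the actin controls, on each 48 h array (red) and each 24 h array (blue). Macrophage and endothelial sums are higher on all 48 h arrays, the muscle sum ranges from 2513 to 21031 across the 48 h arrays, and the actin ratio is lower on all of them.

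Receptors and opsonins for the uptake of dead cells rose with them. Of 26 dead-cell clearance and complement genes tested 20 rose and 0 fell, with a median of 1.45. Of the 20, 1 passed the filter through the 48 h arrays alone, and of the 25 measured in both groups 19 rose. The complement subunits C1qa, C1qb and C1qc rose by 3.06, 2.27 and 2.97, and C1qa had 4441, 3661 and 4332 at 48 h, against 756, 349 and 422 at 24 h. Mertk and Axl, receptors that recognise bridging proteins on dying cells, rose by 2.16 and 1.73. Cd36, a scavenger receptor for oxidised lipid, had 2815, 1889 and 2749 at 48 h, against 417, 248 and 379 at 24 h (log2 change 2.79 ± 0.19, limma adjusted p = 2.60e-06).

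Lysosomal genes rose broadly. Of 46 lysosome genes tested 37 rose and 1 fell, with a median of 1.01. When each array was left out or the variance trend was dropped, 34 to 38 rose. Their summed signal was 86192 to 114066 at 48 h, 46886 to 52709 at 24 h and 35475 to 37809 in vehicle tumours. The cathepsins, proteases of the lysosome, led: Ctsd had 6471, 5415 and 7024 at 48 h, against 1680.1, 1068 and 1358 at 24 h (log2 change 2.21 ± 0.15, limma adjusted p = 2.40e-06), Ctsb had 11113, 9349.5 and 11243 at 48 h, against 4947, 4187 and 4237 at 24 h (log2 change 1.24 ± 0.10), and Ctsh, Ctss and Ctsz rose by 2.88, 2.33 and 1.80. Lgmn, legumain, which processes cathepsins, rose by 2.62. The macrophage marker sum moved with this list on the same 6 arrays, and its part in the lysosomal change was not tested.

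A palindrome known from work on lysosomal promoters in human cells is the core of the CLEAR element, which the transcription factor TFEB binds. The 8 letters TCACGTGA, which read the same on both strands and contain the E-box CACGTG, were searched in RefSeq promoters of GRCm38.p6, 250 bases before to 50 after each start. They lay in 320 of 32851 promoters (0.974%). Windows were held for 38 of the 46 tested lysosome genes, in 47 promoters, of which 6 held the letters (12.8%). The 6 are shown because they are the lysosomal members that hold them, with the palindrome in capitals; each line reads 5' to 3' on the gene's own strand.
Atp6v0d1: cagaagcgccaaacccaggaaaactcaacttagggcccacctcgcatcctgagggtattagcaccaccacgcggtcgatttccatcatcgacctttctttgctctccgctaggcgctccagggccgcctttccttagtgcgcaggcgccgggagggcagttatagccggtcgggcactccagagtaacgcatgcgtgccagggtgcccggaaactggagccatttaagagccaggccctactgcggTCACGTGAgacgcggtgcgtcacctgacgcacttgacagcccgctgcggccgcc
Atp6v1a: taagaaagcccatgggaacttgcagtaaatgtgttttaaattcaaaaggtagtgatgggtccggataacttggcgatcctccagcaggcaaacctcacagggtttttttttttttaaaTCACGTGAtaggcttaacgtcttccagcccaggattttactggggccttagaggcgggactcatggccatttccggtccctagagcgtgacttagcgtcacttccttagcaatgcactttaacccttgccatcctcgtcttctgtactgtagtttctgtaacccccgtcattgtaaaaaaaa
Ctsa: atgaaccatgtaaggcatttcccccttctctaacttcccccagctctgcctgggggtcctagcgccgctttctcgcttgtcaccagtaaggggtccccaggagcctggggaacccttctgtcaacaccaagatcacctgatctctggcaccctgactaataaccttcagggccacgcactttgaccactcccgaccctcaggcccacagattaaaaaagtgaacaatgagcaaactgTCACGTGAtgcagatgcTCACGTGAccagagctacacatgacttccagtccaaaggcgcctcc
Ctsd: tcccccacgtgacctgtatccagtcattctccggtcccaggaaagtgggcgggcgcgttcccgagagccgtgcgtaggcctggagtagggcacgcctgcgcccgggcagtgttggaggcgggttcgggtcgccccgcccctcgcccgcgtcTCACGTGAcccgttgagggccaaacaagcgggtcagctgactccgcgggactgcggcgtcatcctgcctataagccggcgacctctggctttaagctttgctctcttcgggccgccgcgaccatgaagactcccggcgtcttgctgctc
Gla: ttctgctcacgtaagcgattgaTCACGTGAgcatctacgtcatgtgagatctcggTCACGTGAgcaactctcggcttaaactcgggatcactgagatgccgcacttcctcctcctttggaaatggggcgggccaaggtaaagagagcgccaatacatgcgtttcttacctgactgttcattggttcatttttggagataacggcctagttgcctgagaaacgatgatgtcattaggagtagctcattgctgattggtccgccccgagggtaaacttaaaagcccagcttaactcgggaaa
Mcoln1: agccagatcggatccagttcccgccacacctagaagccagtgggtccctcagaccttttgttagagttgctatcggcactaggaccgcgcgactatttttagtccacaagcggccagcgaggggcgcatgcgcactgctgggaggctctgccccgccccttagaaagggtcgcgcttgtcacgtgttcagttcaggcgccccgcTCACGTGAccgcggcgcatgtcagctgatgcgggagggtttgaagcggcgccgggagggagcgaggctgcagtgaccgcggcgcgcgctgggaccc
Of these, Ctsd (chr7:142387778-142388077, minus strand), Ctsa (chr2:164833523-164833822, plus strand), Gla (chrX:134600956-134601255, minus strand), Atp6v1a (chr16:44139210-44139509, minus strand) and Atp6v0d1 (chr8:105566015-105566314, minus strand) were called higher, with log2 changes of 2.21, 1.26, 1.18, 0.96 and 0.37. Ctsa and Gla, which encode cathepsin A and alpha-galactosidase A, held 2 copies each. Mcoln1, the lysosomal calcium channel gene (chr8:3500269-3500568, plus strand), was not called (log2 change 0.27 ± 0.12, limma adjusted p = 0.121). The E-box alone was in 14 of the 47 lysosome promoters (29.8%), in 10 of 44 ribosome biogenesis promoters (22.7%), in 3 of 52 mitosis promoters (5.77%) and in 7.15% of all promoters. A match is a run of letters in a window and not a measured binding site.

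The same search was run for 2 cell cycle motifs. The CHR letters TTTGAA lay in 36 of 52 promoters of mitosis genes (69.2%) and in 17.9% of all promoters, and CCAATCA, of the CCAAT box, in 22 of 52 (42.3%) and 7.82%, on either strand. In ribosome biogenesis promoters the shares were 11.4% and 6.82%, and in lysosome promoters 12.8% and 10.6%. Windows were held for 47 of 55 mitosis genes and 37 of 43 ribosome biogenesis genes.

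Lipid and iron handling rose beside the lysosome. Of 23 lipid handling and efflux genes tested 18 rose and 0 fell, with a median of 1.47. Of the 18, 2 were at or under the 40th percentile on all 24 h arrays, and of the 20 measured in both groups 16 rose. Pltp, the phospholipid transfer protein, had 3837, 3482 and 3943 at 48 h, against 591, 424 and 489 at 24 h (log2 change 2.88 ± 0.11, limma adjusted p = 1.39e-07). Abca1 and Abcg1, which export cholesterol to lipoproteins, rose by 1.59 and 1.96, and Mylip, which removes the LDL receptor, rose by 1.89; all 3 are known targets of the sterol-sensing LXR receptors. Fabp4 and Lpl, also fat-cell genes, rose by 1.87 and 1.47. Of 21 iron and heme genes tested 12 rose and 0 fell, with a median of 1.04. The count was also 12 when each array was left out or the variance trend was dropped. Of the 12, 3 were at or under the 40th percentile on all 24 h arrays, and of the other 18 tested 9 rose. Hmox1, the enzyme that opens heme, had 2777, 1283 and 1947 at 48 h, against 278, 192 and 434 at 24 h (log2 change 2.67 ± 0.28, limma adjusted p = 4.45e-05), with replicate 3 the lowest 48 h array. Blvra, the next enzyme of that route, and Slc11a1, a phagosomal metal transporter, rose by 1.35 and 2.16. Of 5 erythroid markers tested 0 rose and 1 fell, Bpgm (-0.44, called in 2 of the 6 fits that left out an array), and Hba-a1 was too low to test.

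Antigen presentation and interferon genes rose. Of 18 antigen presentation genes tested 13 rose and 0 fell, with a median of 1.37. Cd74, the chaperone of class II molecules, had 1014, 995 and 1244 at 48 h, against 185, 131 and 83.8 at 24 h (log2 change 2.93 ± 0.21, limma adjusted p = 3.18e-06), and the class II chains H2-Aa, H2-Ab1 and H2-Eb1 rose by 2.45, 1.93 and 2.47. B2m, the shared light chain of class I, had 4147, 4313 and 5095 at 48 h, against 1902, 1486 and 2155 at 24 h (log2 change 1.29 ± 0.13). Of 27 interferon response genes tested 18 rose and 1 fell, with a median of 0.93. Of the 18, 1 passed the filter through the 48 h arrays alone, and of the 26 measured in both groups 17 rose. Irf8, a transcription factor of the macrophage lineage, rose by 2.14, and the antiviral genes Rsad2, Ifit3 and Oas1a rose by 1.65, 1.64 and 1.44. Of 26 chemokine and cytokine genes tested 15 rose and 4 fell, with a median of 0.96, led by Ccl6 (1209, 407 and 956 at 48 h, against 88.9, 107 and 137 at 24 h) and Ccl8 (2.43). Of the 15, 2 passed the filter through the 48 h arrays alone, and of the 4 that fell, 1 through the 24 h arrays alone. Among the 22 measured in both groups 13 rose and 3 fell. Ccr2, the receptor of recruited monocytes, rose by 1.57.

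Markers of other leukocytes had low signals, and the filter largely fixed which of them were tested. Of the 5 neutrophil markers called higher, 4 were at or under the 40th percentile on all 24 h arrays and so were tested only because they were high at 48 h; of the 7 measured in both groups 1 rose and 0 fell. The summed signal of the 11 tested was 642 to 773 at 48 h and 211 to 387 at 24 h. Csf3r, the neutrophil growth factor receptor, had 166, 139 and 184 at 48 h, against 11.7, 10.4 and 9.1 at 24 h. Of the 6 lymphocyte and NK markers called higher, 5 were likewise low on all 24 h arrays, and only 2 of the 9 tested were measured in both groups. Of these 2, 1 rose and 0 fell. The rise was in Ighm, the immunoglobulin heavy chain gene of B cells, with 228, 209 and 270 at 48 h, against 12.2, 36.4 and 39.9 at 24 h (log2 change 2.52 ± 0.25, limma adjusted p = 2.94e-05). Only 2 of its 5 tested probe sets were called. The sums of the 9 were 605 to 949 at 48 h and 136 to 155 at 24 h. Gzma, a granule protease of killer cells, had 132, 144 and 351 at 48 h, against 13.4, 15.1 and 16.7 at 24 h, while Klrd1, of NK cells, had 49.8, 39.6 and 60.7 at 48 h, against 15.4, 8.7 and 13.0 at 24 h. Cd3e, Cd3d, Cd79a and Ms4a1, the defining T and B cell markers, were too low to test. Cd4 had 74.6, 95.2 and 83.1 at 48 h, against 5.5, 7.1 and 4.8 at 24 h, all 24 h values under the 40th percentile, and the other of its 2 probe sets was not called. No fold is given for Csf3r, Gzma, Klrd1 and Cd4, which were low on all 24 h arrays.

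Matrix and vessel genes rose. Of 51 collagen and matrix genes tested 37 rose and 3 fell (45 rose without 48 h replicate 3), with a median of 0.89. Timp2, an inhibitor of matrix proteases, had 2545, 2152 and 3136 at 48 h, against 349, 273 and 284 at 24 h (log2 change 3.04 ± 0.14, limma adjusted p = 1.79e-07). Dcn, the fibroblast proteoglycan decorin, had 2154, 1784 and 2686 at 48 h, against 537, 334 and 268 at 24 h (log2 change 2.53 ± 0.21), and Pdgfra, a receptor for platelet-derived growth factor on fibroblasts, rose by 2.17. Only 1 of the 2 tested probe sets of Dcn was called. The proteases Mmp13, Mmp3 and Mmp2 rose by 3.29, 3.06 and 1.97. Col18a1, a basement membrane collagen, had 617, 509 and 742 at 48 h, against 1554, 1347 and 1480.2 at 24 h (log2 change -1.22 ± 0.13). Of 29 endothelial markers tested 17 rose and 0 fell, with a median of 0.63 and a count of 11 in the fit without the variance trend. Vwf, von Willebrand factor, had 227, 259.6 and 302 at 48 h, against 75.1, 59.4 and 38.2 at 24 h (log2 change 1.95 ± 0.20), Pecam1 and Cdh5, of endothelial junctions, rose by 1.10 and 0.90, Cdh5 with a call in 4 of the 6 fits that left out an array, and the list sum was 6339 to 8583 at 48 h and 4173 to 5268 at 24 h. Of 16 pericyte and smooth muscle markers 2 rose and 1 fell, Pdgfrb (0.81), Anpep (1.51) and Angpt1 (-0.74); without 48 h replicate 3 the counts were 8 and 3, 4 rose without 24 h replicate 3 and 2 fell without 24 h replicate 1.

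Muscle signal was uneven across the 48 h arrays. The sum of 29 muscle markers was 8853, 21031 and 2513 at 48 h (replicates 1, 3 and 4), against 15870 to 21447 at 24 h, and was 1359 to 16119 among vehicle tumours. Of the 29, 6 fell and 0 rose, with a median of -1.39; 23 fell without 48 h replicate 3, and 3 when any single 24 h array was left out. Myh4, a fast muscle myosin, had 1.2, 361 and 4.7 at 48 h, against 639, 1415 and 604 at 24 h (log2 change -4.03 ± 0.89, limma adjusted p = 0.00596), with replicate 3 far above the other 48 h arrays. Atp2a1, the calcium pump of fast muscle, had 255, 551 and 21.4 at 48 h, against 599.5, 986 and 804 at 24 h (limma adjusted p = 0.0419), called in 2 of the 6 fits that left out an array. Pvalb, a calcium-binding protein gene of fast muscle and of some neurons, had 1534, 1601 and 1575 at 48 h, against 2300.3, 2685 and 2487 at 24 h (log2 change -0.66 ± 0.08), even within groups. Among 10 fat-cell genes 3 rose (5 without 24 h replicate 1) and 1 fell, and Adipoq, the defining fat-cell hormone, had 72.0, 568 and 132 at 48 h, against 199, 55.4 and 76.5 at 24 h (log2 change 0.81 ± 0.57, limma adjusted p = 0.33). Of 8 keratinocyte markers 0 rose (1 without 24 h replicate 1) and 0 fell. What adjoining flank tissue contributed to the matrix, vessel and lipid lists was not tested.

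Some genes that had climbed through 24 h were lower a day later. Of the 2154 genes called lower, 454 had group means that increased at each step from vehicle through 4 h, 8 h and 24 h of drug, and in 382 of these the 48 h mean was under the 8 h mean. The share of all genes with this climb was not counted. A high 24 h mean favours both the climb and the call, so these counts are descriptive only. The genes described here were picked for this pattern after their values were seen. Igfbp5, a secreted binder of insulin-like growth factors, had 1402, 2132 and 1515 at 48 h, against 8034, 8040.3 and 6337 at 24 h (log2 change -2.16 ± 0.15, limma adjusted p = 2.70e-06), with means of 413 in vehicle, 1026 at 4 h and 3137 at 8 h. Mfap4, a matrix fibril protein gene, had 671, 909 and 659 at 48 h, against 3692, 3535 and 3154 at 24 h (log2 change -2.20 ± 0.12), with means of 623 in vehicle, 1281 at 4 h and 2027 at 8 h. Lmo1, a LIM-only co-regulator of transcription, had 139, 144 and 124 at 48 h, against 599, 586 and 618 at 24 h (log2 change -2.03 ± 0.11), and means of 122, 219 and 432 in the same order. In all 3 the group means climbed at each step to 24 h, and at 48 h the mean was under that of 8 h. Thsd7b, a thrombospondin repeat protein gene, had 40.5, 87.5 and 35.7 at 48 h, against 451, 500.5 and 454 at 24 h (log2 change -2.85 ± 0.22), with a vehicle mean of 58.6. Gfap, the astrocyte filament gene, had 69.2, 42.5 and 9.3 at 48 h, against 245, 271 and 305 at 24 h (log2 change -2.53 ± 0.34), with a vehicle mean of 19.5, while Glul, glutamine synthetase, another astrocyte gene, rose by 1.25. Of 18 astrocyte and neural stem cell markers 7 fell and 3 rose, and Aqp4 was too low to test.

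The insulin-like growth factor system changed on both sides of the receptor. Of 23 genes tested 5 rose and 8 fell (5 fell without 24 h replicate 2), with a median of -0.02. Igf1, which macrophages and stroma make, had 1569, 1083 and 1500.2 at 48 h, against 214, 129.7 and 199 at 24 h (log2 change 2.84 ± 0.18, limma adjusted p = 1.82e-06), whereas Igf2 had 5398, 6510.0 and 5674 at 48 h, against 10046, 11195 and 9260.2 at 24 h (log2 change -0.79 ± 0.10, limma adjusted p = 0.00013). Neither pair of groups overlapped. Irs1, the docking protein of the receptor, had 1069.6, 1245 and 1229.7 at 48 h, against 2792, 2584 and 2558 at 24 h (log2 change -1.15 ± 0.09), and its vehicle mean was 5462. Igfbp4 rose by 1.13 and Igfbp2 fell by 1.16.

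**Figure D5:**
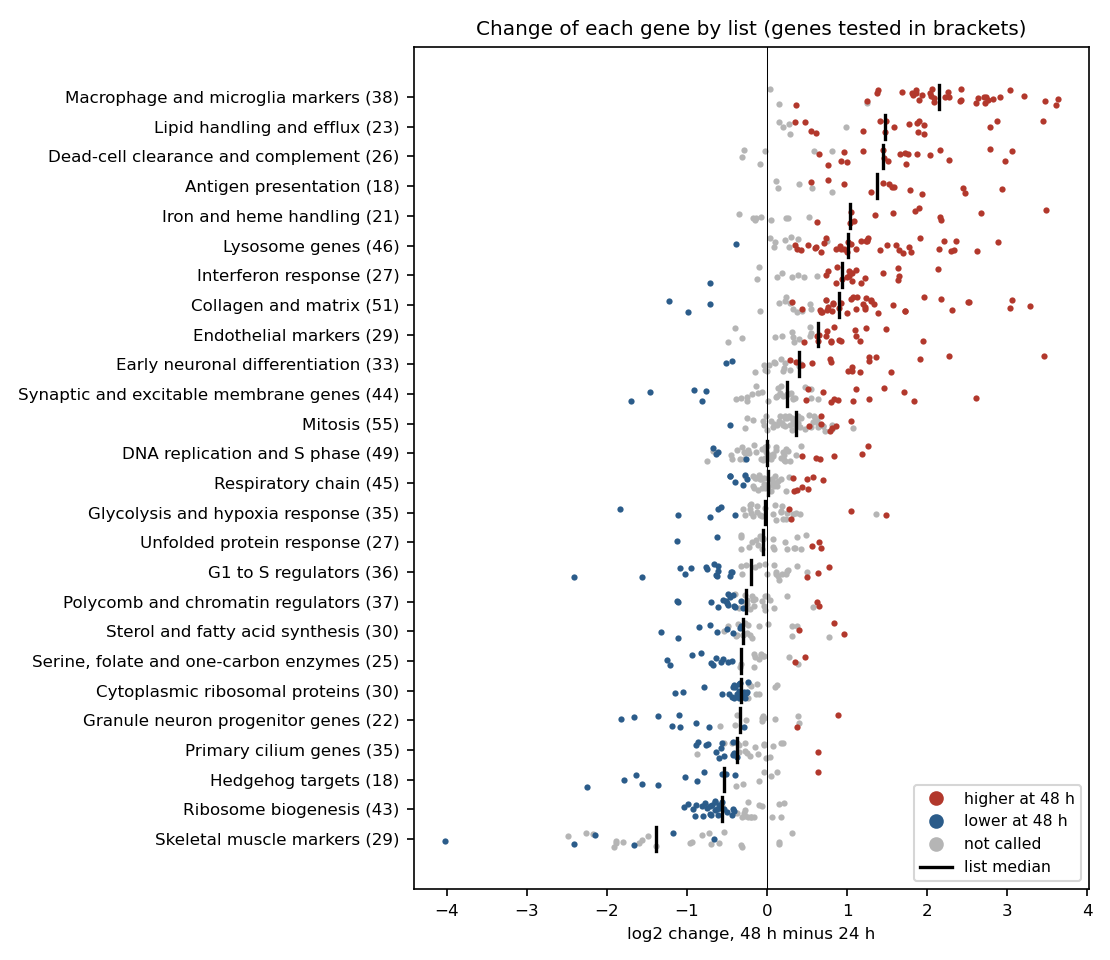
Each point is 1 tested gene of a list, placed by its log2 change, 48 h minus 24 h, in red if higher at 48 h, blue if lower and grey if not called, with a bar at the list median. Medians run from 2.15 for macrophage markers to -1.39 for skeletal muscle, and those of replication, respiration, glycolysis and the unfolded protein response lie near 0.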

How the data were processed

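The authors processed the arrays with MAS5, per the submitters' processing notes (version not given), from biotinylated cRNA, per the labels' protocols. The deposited values are linear signal intensity, scaled by the authors to a 2% trimmed mean of 150 on every array, so each signal is relative to its array. The arrays give no counting error, and their number limits the precision. Deposited values cover 45101 probe sets. The 64 control probe sets served only for RNA integrity. Of the others and controls together, 34958 have 1 gene symbol in the platform annotation, 932 several and 9211 none. The array named in the study's design text is smaller than this layout.

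Samples were grouped by description. Values were taken as log2(signal + 16), so changes of dim genes are understated. A probe set was tested if its signal exceeded the 40th percentile of the array on 2 or more of the 6. The 3 arrays of 48 h were fitted against the 3 of 24 h with limma 3.58.1 (lmFit, eBayes with trend) in R 4.3.3 (data.table package, version 1.17.8), two-sided, with Benjamini-Hochberg adjustment over all probe sets at 0.05; residual degrees of freedom were 4 and prior 7.43. The fit was tested on simulated data. Each gene is represented by its probe set of highest mean level. Of 260 named genes called, 115 had 1 probe set, 83 had every tested probe set called the same way, 61 had another not called, and 1 (Rbbp4) had another called the other way. Among the 61 were Cd4, Rab3c, Cenpa, Trem2, Dcn, Tgfb1, Notch2, Hrk and Ighm. The labels do not state that the arrays of a group come from different animals. The p-values therefore rest on the spread among these samples alone, and that spread may be technical.

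Named genes are the 20 largest rises and falls without overlap, the 6 called members of smallest p in each of 46 lists, and a short set of pathway and proliferation genes; list members that did not pass may be named too. Ccnd2, Actl6a, Actl6b, Csf1r, Adgre1, Pecam1, Cdh5 and the genes of the printed promoters, where called, fall outside this rule and were chosen after their values were seen or as defining markers. The members, lists and comparison were chosen with earlier results of these data known. The alternatives were other offsets (1 and 64), no filter or the 60th percentile, quantile normalization, no variance trend, all 23 arrays in 8 groups, a block for replicate number or for identifier run, and each array left out in turn. Promoters are from RefSeq (GRCm38.p6), matched by symbol.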

Additional observations from a re-analysis of the deposited data

How the results depend on the processing

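The count of 8159 probe sets called (3999 higher, 4160 lower) was 6177 to 8289 under the 8 alternatives that neither left out an array nor used the replicate number, and 0 probe sets were called in the opposite direction under any of the 15. Leaving out each array gave 5738 to 8631 in all, 2872 to 4124 higher and 2780 to 4507 lower, with 6950 (3645 higher, 3305 lower) without 24 h replicate 1, whose labels disagree. With the replicate number as a block, which only replicates 1 and 3 share between groups, 5431 were called, 2844 higher and 2587 lower. Deviations from the group means correlated at 0.013 for replicate 1 and 0.00753 for replicate 3, and at -0.0906 to 0.0827 for arrays of unlike number. Whether the numbers pair the arrays is not stated by the labels, and these few values cannot decide it. Over 265 named genes, 3838 of 3967 values under the alternatives kept their direction and side of the threshold, 128 lost the call, 1 gained it and 0 reversed. The cause of these shifts was not tested. Fits that left out 1 array rest on fewer arrays, and the fit without 48 h replicate 3 called more probe sets (8631). With 3 arrays a group, RNA integrity and time cannot be told apart, nor can tumour and host RNA.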

Other observations

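Lists of stress and energy metabolism moved little between 24 h and 48 h. Of 27 unfolded protein response genes tested 3 rose (7 without 48 h replicate 3) and 2 fell, with a median of -0.05, and the chaperones Hsp90b1 and Pdia3 rose by 0.57 and 0.68. Of 17 heat shock genes 0 rose and 3 fell, among them Hsph1, with 593, 638 and 595 at 48 h, against 1402, 1328 and 1121 at 24 h (log2 change -1.05 ± 0.10, limma adjusted p = 2.31e-05). Of 45 respiratory chain genes 8 rose (17.8%) and 6 fell, or 13.3% (2 to 8 fell when each array was left out). Their median was 0.01. Of 35 glycolysis and hypoxia genes 4 rose (2 without 24 h replicate 1 or 48 h replicate 1 or 4, and 7 without 48 h replicate 3) and 6 fell, with a median of -0.03. Of the 4, 1 passed the filter through the 48 h arrays alone, and of the 34 measured in both groups 3 rose. Ddit4, an inhibitor of mTORC1 signalling, had the largest fall of that list, with 498, 552 and 501 at 48 h, against 1787, 1827 and 2054 at 24 h (log2 change -1.84 ± 0.09, limma adjusted p = 4.13e-07). Aldoa, a glycolytic enzyme that muscle also makes, fell by 0.71.

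Some members of the death and early response lists changed, where 16.3% of all genes were higher and 16.4% lower. Of 27 BCL2 family and caspase genes tested 7 rose (25.9%) and 4 fell, or 14.8% (1 to 3 fell when each array was left out). Casp1, of the inflammasome, and Casp8, of the death receptors, rose by 2.04 and 1.19. Bcl2l11, the death-promoting BH3 protein Bim, had 944, 946 and 1148 at 48 h, against 1637, 2252 and 1834 at 24 h (log2 change -0.90 ± 0.12), with a vehicle mean of 654, while Hrk, another BH3 gene, rose by 1.20. Of 25 p53 targets 4 rose and 3 fell (1 to 3 when each array was left out). Trp53inp1 fell by 0.81 and Sesn1 rose by 0.70. Of 26 immediate early genes 7 rose (26.9%) and 5 fell, or 19.2% (2 to 6), with rises of 1.16 in Dusp1 and 1.10 in Klf6. Of 29 Wnt genes 9 fell (31%) and 5 rose, or 17.2% (0 to 4 when each array was left out). Of 33 TGF-beta, BMP and activin genes 8 rose (24.2%) and 6 fell (18.2%). Without 24 h replicate 2 or 48 h replicate 1, 3 of that list fell. Tgfb1 (1.53) was among the rises and Tgfb2 (-0.96) among the falls. Of 23 MAPK feedback genes 3 rose and 2 fell, and of 12 oligodendrocyte and Schwann cell markers 3 rose and 2 fell (1 without 24 h replicate 2 or 3 or 48 h replicate 1).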
